A study of Homo sapiens with 20 samples.

Results

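HEL cells that had been kept in long culture with fedratinib, an inhibitor of the kinase JAK2, were compared with the parental HEL cells they came from. The comparison rests on 4 of the 20 libraries of the series, 2 of fedratinib-persistent cells (FedP) and 2 of parental cells, which the labels assign by name. HEL is a human erythroleukaemia line whose cells carry the activating JAK2 V617F mutation, so every library compared here has that allele. FedP cells were made by prolonged exposure to the drug. The dose, the length of the culture, whether the drug was present at harvest, and whether the cells were a clone or a pool are not given in the labels. The 2 libraries of ruxolitinib-persistent HEL cells (RuxP), made by long culture with another JAK2 inhibitor, were counted in the same table and served to show where FedP differed from another persistent line. RNA was sequenced in bulk, and values are counts scaled to library totals (CPM).

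JAK2 is the kinase that passes signals from cytokine receptors, such as that for erythropoietin, to the transcription factor STAT5 and to the RAS, MEK and ERK kinases. STAT5 drives genes that shut the signal down again, among them CISH and the SOCS genes, as well as the kinase PIM1. ERK likewise induces its own brakes, the Sprouty and SPRED proteins and phosphatases such as DUSP6, together with the ETS factors ETV1, ETV4 and ETV5. HEL cells express genes of both the red cell and the megakaryocyte lineage, and can be shifted between them.

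Totals were 59204428 and 54801993 counts in the parental libraries, 51799814 and 59199791 in RuxP, and 79755715 and 77435214 in FedP. The FedP libraries were far more alike than any other pair. The median absolute log2 difference between the 2 libraries of a group was 0.0661 in FedP, 0.291 in RuxP and 0.408 in parental cells. By a chi-square of their counts, halved because both mates of a pair were probably counted, the FedP libraries still differed by 2.55 times sampling noise, against 179 times for the parental pair. They were therefore kept as 2 libraries, and results are also given with their counts summed into 1. No source used here says whether the libraries of a group came from separate cultures, so p-values measure the spread between these libraries, which may be technical. The share of counts on mitochondrial genes was 12.4 and 12.6% in FedP, 15.6 and 23.6% in parental cells and 25.7 and 23.1% in RuxP. Parental library 2 also differed from parental library 1 in a way that followed the GC content of the genes, described at the end.

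The labelled identity was checked against lineage markers. The erythroid factors GATA1 (91.6 to 286 CPM over the 6 libraries) and KLF1 (44.3 to 165 CPM), the fetal globin HBG2 (181 to 588 CPM) and the megakaryocyte integrin ITGA2B (762 to 2310 CPM) were present in every library. The T cell marker CD3E had at most 2 counts, the B cell marker MS4A1 had 0 and the epithelial cadherin CDH1 had at most 6. Markers of other lineages were not all silent: the myeloid lysozyme LYZ lay at 41.6 to 54.3 CPM in all 6 libraries, and the keratin KRT8 at 8.43 to 34.2 CPM. The lymphoid marker CD79A lay at 0.262 to 2.48 CPM, highest in FedP (2.37 and 2.48 CPM), and the epithelial marker EPCAM at 0.087 to 1.43 CPM.

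Of 15924 genes tested with edgeR's quasi-likelihood test, 1055 passed an adjusted p of 0.05, which is 6.63% of them, with 611 higher and 444 lower in FedP cells. A change of at least 2-fold was seen in 846 of these (5.31% of tested genes), 507 higher (3.18%) and 339 lower (2.13%). The median log2 fold change over all tested genes was 0.01. Both FedP libraries lay above both parental ones in 5258 of the 15924 genes and below them in 4778, so a lack of overlap was common. With the FedP libraries summed, 212 genes passed (1.22% of the 17427 tested there), all of them among the 1055 and in the same direction. With trends in GC content and transcript length removed, 3787 passed (23.8%), with 1627 higher and 2160 lower, and 1004 of the 1055 were among these in the same direction. The share of higher genes thus went from 57.9% to 43.0% of calls with that correction.

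The largest rises were in genes close to silent in parental cells, and some encode transcription factors of the ETS family or proteins of myeloid cells. FEV, an ETS factor known from serotonin neurons (chromosome 2, 218981087 to 218985657, GRCh38), had 0.278 and 0.0775 CPM in the parental libraries and 38.7 and 40.5 CPM in FedP. Its log2 fold change was 7.75 (SE 0.51, adjusted p = 0.0033), the largest of the called genes that averaged 4 CPM or more. ETV4, another ETS factor, went from 0.191 and 0.0775 CPM to 15.1 and 13.4 CPM (log2 6.68, SE 0.48, adjusted p = 0.0035). For both genes every FedP library lay far above both parental libraries.

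Other large rises were in genes of varied function. ALOX5, the 5-lipoxygenase that starts leukotriene synthesis, was at 0.331 and 0.368 CPM in parental cells and at 15.8 and 15 CPM in FedP (log2 5.46, SE 0.24, adjusted p = 0.0019). Both FedP libraries were far above both parental ones. The sialic acid receptors SIGLEC12 (log2 4.89, SE 0.50) and SIGLEC10 (log2 4.34, SE 0.31) rose as well. Others of the 15 largest rises were FAM83A (log2 6.65), a scaffold protein of growth factor signalling, the secreted protease ADAMTS14 (5.96), APOL4 (4.57), the thyroid hormone receptor THRB (4.49), FOXO6 (4.37), LITAF (4.34), HIVEP3 (4.31), the phosphatase PTPN5 (4.14) and the glutathione transferase GSTP1 (3.89). In all 15 genes the FedP and parental libraries did not overlap, as the rule that chose them required.

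Several of the largest falls took genes from clear expression to near silence. CAMK2D, a calcium-dependent kinase, went from 8.02 and 8.35 CPM in parental cells to 0.0469 and 0.0958 CPM in FedP (log2 -6.81, SE 0.48, adjusted p = 0.0034). EYA4, a transcriptional coactivator, went from 14.3 and 16.5 CPM to 0.188 and 0.12 CPM (log2 -6.62, SE 0.37, adjusted p = 0.0019). LIPH, a phospholipase, had the narrowest spread of the 15, with 195 and 200 CPM in parental cells and 10.2 and 10.7 CPM in FedP (log2 -4.23, SE 0.17, adjusted p = 0.0019). HDAC9 (log2 -6.28), a histone deacetylase, CD40LG (-6.34), ARHGEF15 (-6.18), PHEX (-5.65), OR51E1 (-4.83), the water channel AQP2 (-4.51), DAPP1 (-4.02), C1orf116 (-3.95) and the chemokine receptor CCR4 (-3.88) were also among the 15 largest falls. The platelet genes PF4, THBS1 and TREML1 complete the 15. TREML1, a receptor of platelet granules, went from 12.1 and 6.74 CPM to 0.516 and 0.551 CPM (log2 -4.14, SE 0.55, adjusted p = 0.013), and PF4 and THBS1 are described next. The plot of these genes shows each library, with the RuxP libraries for reference.

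**Figure D1:**
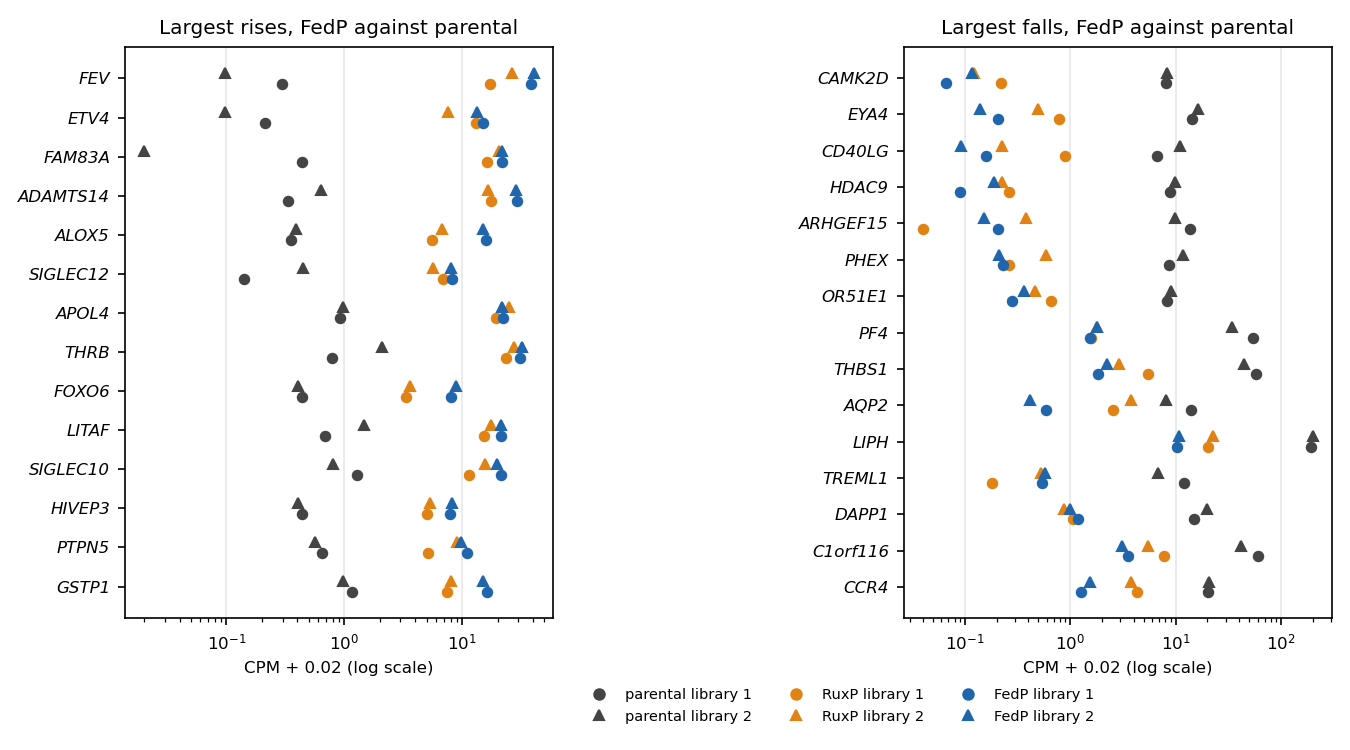
CPM plus 0.02 on a log axis for 14 of the 15 largest rises (left) and the 15 largest falls (right) in FedP against parental cells, 1 symbol per library: parental grey, RuxP orange, FedP blue, circles for library 1 and triangles for library 2. Blue and grey symbols do not overlap in any of the 29 genes drawn, from FEV at 38.7 and 40.5 CPM against 0.278 and 0.0775 to LIPH at 10.2 and 10.7 CPM against 195 and 200.

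Genes of megakaryocytes and platelets were lower in FedP cells. Of 40 members tested, 20 fell, 0 rose and 20 did not pass, against 2.79% of all tested genes called lower, and the median log2 fold change was -0.89. The granule chemokine PF4 (chromosome 4, 73981077 to 73982124) went from 54.1 and 34.5 CPM to 1.54 and 1.77 CPM, a 26.7-fold fall (log2 -4.74, SE 0.29, adjusted p = 0.0027). PPBP, the neighbouring platelet chemokine, went from 4.58 and 7.05 CPM to 0.188 and 0.24 CPM (log2 -4.75, SE 0.41, adjusted p = 0.0047). THBS1, the adhesive protein thrombospondin of platelet granules, went from 58.3 and 44.5 CPM to 1.81 and 2.22 CPM (log2 -4.68, SE 0.38, adjusted p = 0.0044). In all 3 genes both FedP libraries lay far below both parental libraries. In bulk RNA, fewer cells of a type and less RNA per cell cannot be told apart.

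Surface receptors of platelets were lower as well. GP1BA, the receptor for von Willebrand factor, went from 357 and 484 CPM to 79.3 and 80.7 CPM (log2 -2.39, SE 0.21, adjusted p = 0.0047). ITGB3, the beta chain of the fibrinogen receptor, went from 232 and 218 CPM to 59.2 and 57.4 CPM (log2 -1.95, SE 0.15, adjusted p = 0.0038). Its partner chain ITGA2B was at 2310 and 1335 CPM in parental cells and at 1820 and 1766 CPM in FedP (log2 -0.02, SE 0.28, adjusted p = 0.97), with the FedP libraries between the parental ones. With GC and length trends removed ITGA2B was called lower (log2 -0.49, adjusted p = 0.0063), and without parental library 1 its value was 0.43. The megakaryocyte tubulin TUBB1 fell from 77.4 and 64.7 CPM to 26.6 and 27.5 CPM (log2 -1.39, SE 0.16, adjusted p = 0.0093). The factor RUNX1 was at 674 and 584 CPM against 432 and 420 CPM without passing (log2 -0.56, adjusted p = 0.077). With the FedP libraries summed 7 members fell (against 0.442% of all genes tested there), without parental library 1 it was 25 (13.4%) and without parental library 2 it was 22 (3.11%), and with GC and length trends removed 31 fell and 1 rose (13.6% and 10.2% of all tested genes).

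Red cell genes did not move together. Of 45 tested, 2 rose, 3 fell and 40 did not pass, and the median was 0.09. The share called was 11.1%, against 6.63% of all tested genes. HBE1, the embryonic beta-like globin, fell from 264 and 156 CPM to 45.7 and 42.6 CPM (log2 -2.25, SE 0.31, adjusted p = 0.014), while the fetal globin HBG2 was at 566 and 364 CPM against 588 and 559 CPM (log2 0.30, adjusted p = 0.48). HBG2 has a near-identical copy, HBG1, so the division of reads between these 2 is uncertain. The haem enzymes FECH (29 and 26 CPM against 54.7 and 56.8 CPM, log2 1.02, adjusted p = 0.017) and UROS (log2 0.85, adjusted p = 0.026) rose. The transferrin receptor TFRC fell from 371 and 495 CPM to 187 in both FedP libraries (log2 -1.21, adjusted p = 0.018), and HEMGN, a nuclear protein of erythroid cells, fell too (log2 -1.13, adjusted p = 0.049). GATA1, the master factor of the lineage, was at 286 and 144 CPM against 232 and 226 CPM (log2 0.09, adjusted p = 0.89), and with GC and length trends removed it was called lower (log2 -0.38, adjusted p = 0.035). That correction gave 9 red cell genes higher and 14 lower, against 10.2% and 13.6% of all genes.

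**Figure D2:**
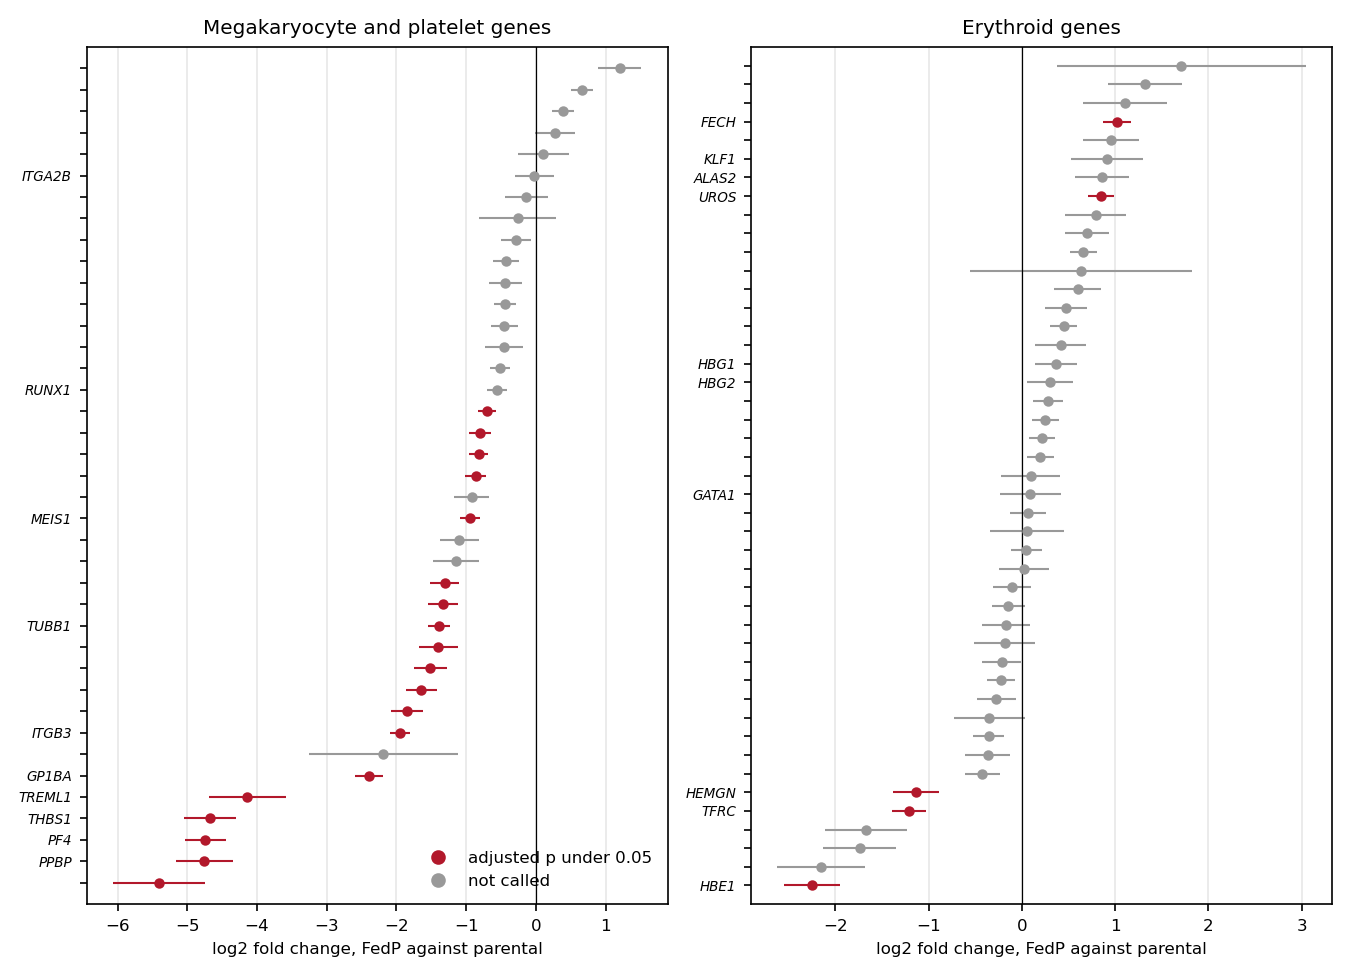
log2 fold change of FedP against parental cells with its standard error for 39 megakaryocyte and platelet genes (left) and 45 erythroid genes (right), red where the adjusted p was under 0.05, with genes named in the text labelled. On the left 19 genes are red and all lie below 0, down to -5.41, and on the right 2 red genes lie above 0 and 3 below.

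Monocyte and granulocyte genes were called in both directions, with 5 higher, 2 lower and 22 not called of 29 tested and a median of 0.86. The share called was 24.1%, against 6.63% of all tested genes. Beside ALOX5, the sialic acid receptor CD33 rose from 36.4 and 27.4 CPM to 123 and 122 CPM (log2 1.94, SE 0.19, adjusted p = 0.0055). The Fc receptor FCGR2A rose from 41.4 and 46.3 CPM to 96.1 and 102 CPM (log2 1.18, adjusted p = 0.014), whereas FCER1G, the signalling chain of other Fc receptors, fell from 85.1 and 83.9 CPM to 36.6 and 35.1 CPM (log2 -1.24, adjusted p = 0.012). The matrix proteoglycan VCAN fell from 25.7 and 31.4 CPM to 1.91 and 2.20 CPM (log2 -3.79, SE 0.27, adjusted p = 0.0035). The protease gene CTSG was called higher, with 0 counts in both parental libraries and 0.41 and 0.575 CPM in FedP. SPI1, the factor PU.1 of the myeloid lineage, was at 104 and 45.5 CPM against 260 and 254 CPM and did not pass (log2 1.78, adjusted p = 0.060).

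Stem and progenitor genes, with 2 higher and 2 lower of 19 tested (21.1% called, against 6.63% of all tested genes), were also mixed. KIT, the stem cell factor receptor, rose from 20.4 and 24.8 CPM to 73.8 and 75.4 CPM (log2 1.72, SE 0.17, adjusted p = 0.0055). CD34, the progenitor surface marker, fell from 3.25 and 3.60 CPM to 0.422 and 0.299 CPM (log2 -3.24, SE 0.39, adjusted p = 0.011). MECOM rose (log2 0.94, adjusted p = 0.019) and MEIS1 fell (log2 -0.95, adjusted p = 0.021). GATA2 was at 1133 and 588 CPM against 2134 and 2075 CPM without passing (log2 1.29, adjusted p = 0.070). Lymphoid markers called higher were PRF1, CD4 and IL7R of 16 tested (18.8% called). Of 16 epithelial and stromal markers (25% called) KRT8 and PDGFRB were called higher and PECAM1 and CDH5, which are also endothelial genes, lower.

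Adhesion receptors were called in both directions, with 4 higher and 6 lower of 33 tested (30.3% called, against 6.63% of all tested genes). PECAM1, the adhesion molecule CD31 of platelets and endothelium (chromosome 17, 64319415 to 64413776), fell from 702 and 708 CPM to 128 and 122 CPM (log2 -2.49, SE 0.14, adjusted p = 0.0019). CD24, a small surface glycoprotein, rose from 0.383 and 0.388 CPM to 5.26 CPM in both FedP libraries (log2 3.77, SE 0.19, adjusted p = 0.0019). The leukocyte integrin chain ITGB2 rose from 15.8 and 10.3 CPM to 87.9 and 83.3 CPM (log2 2.71, SE 0.30, adjusted p = 0.0086), and the hyaluronan receptor CD44 rose from 75.8 and 67.5 CPM to 169 CPM in both (log2 1.24, adjusted p = 0.010). ITGA9 (log2 -2.24) fell.

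DUSP6, the phosphatase that inactivates ERK and the gene named in the title of the series, did not pass the test. It lies on chromosome 12 (89347232 to 89353271). Its level was 0.661 and 2.71 CPM in parental cells and 8.51 and 7.83 CPM in FedP (log2 2.28, SE 0.63, adjusted p = 0.090), so both FedP libraries were higher than both parental ones. The parental libraries themselves lay well apart. With GC and length trends removed the log2 fold change was 2.35 and passed (adjusted p = 0.024), and with the FedP libraries summed the adjusted p was 0.22. Of the 9 tested MAP kinase phosphatases 1 was called, 11.1% against 6.63% of all tested genes. This was DUSP4, which acts on ERK in the nucleus and went from 0.713 and 1.24 CPM to 4.45 and 4.14 CPM (log2 2.14, SE 0.41, adjusted p = 0.036). That call was lost in 5 of 20 alternative analyses, and DUSP6 passed in 11 of 21. DUSP1, a phosphatase that prefers the stress kinases, was at 7.52 and 3.91 CPM against 3.62 CPM in both FedP libraries (log2 -0.66, adjusted p = 0.35).

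ERK feedback and immediate-early genes were called only upwards, with 7 higher, 0 lower and 23 not called of 30 tested, against 3.84% of all tested genes called higher, and a median of 0.77. Those called were the ETS factors ETV4, ETV5 and ETV1, the cyclin CCND1, the cytokine LIF, and the inhibitors SPRED2 and SPRY1, the last of which is named outside the rule to complete the count. ETV5 (chromosome 3, 186046308 to 186110318) went from 4.98 and 4.57 CPM to 36.8 and 37.2 CPM (log2 2.95, SE 0.17, adjusted p = 0.0019). CCND1, a cyclin induced by growth factors, went from 0.557 and 0.349 CPM to 5.32 and 5.41 CPM (log2 3.56, SE 0.32, adjusted p = 0.0052). SPRED2, which blocks RAF activation, went from 20.1 and 19.4 CPM to 42.8 and 42.4 CPM (log2 1.11, SE 0.16, adjusted p = 0.015). Immediate-early factors were not among the genes called: EGR1 lay at 1.46 and 2.25 CPM against 4.57 and 4.72 CPM (log2 1.33, adjusted p = 0.057). SPRY4 was not tested, with at most 22 counts in a library. With the FedP libraries summed 4 members were called higher, and with GC and length trends removed 11 were higher and 2 lower. The shares of all genes called higher were 0.775% and 10.2% under these 2 settings, and 13.6% were lower under the second.

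Genes of the kinase steps were examined next. Of 5 tested RSK and MSK kinases, which act below ERK and p38, 0 were called by edgeR, DESeq2 or limma-voom. Of all 15924 tested genes these tools called 1055, 2560 and 1278. By edgeR 1 of the 5 had an unadjusted p under 0.05, as did 3975 of all tested genes. RPS6KA1, the gene of RSK1, was at 139 and 91.1 CPM against 159 and 151 CPM (log2 0.43, adjusted p = 0.33). Of 29 genes of the RAS, RAF and MEK steps 3 were called, 10.3% against 6.63% of all tested genes. RASGRP3, which loads RAS with GTP, fell from 88.3 and 96.9 CPM to 28.0 and 27.5 CPM (log2 -1.74, adjusted p = 0.0055). The adaptor GAB2 fell too (log2 -1.04, adjusted p = 0.024), and RASSF2, a RAS-binding protein, rose (log2 0.87, adjusted p = 0.042).

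Of 18 STAT5 target genes tested 5 were higher, 1 lower and 12 not called, against 3.84% of all tested genes higher and 2.79% lower, and the median was 0.66. SOCS3, an inhibitor of JAK kinases, went from 10.5 and 4.90 CPM to 34.4 and 31.5 CPM (log2 2.10, SE 0.35, adjusted p = 0.025). SOCS1, its relative, went from 1.67 and 0.853 CPM to 7.37 and 7.79 CPM (log2 2.58, SE 0.37, adjusted p = 0.016). CCND2, the D-type cyclin of blood cells, went from 145 and 148 CPM to 423 and 431 CPM (log2 1.54, SE 0.14, adjusted p = 0.0047). FedP libraries were above the parental ones in each of these genes, and in ID1 (log2 2.01, adjusted p = 0.014). The kinase PIM1 rose from 480 and 310 CPM to 877 and 838 CPM (log2 1.12, SE 0.23, adjusted p = 0.045), a call lost in 7 of 21 alternative analyses. PIM1 was not unusual in this: the calls of JAK1, CSF2RB, FLT4, IGF1R and TFRC were also lost in 7, and those of HEMGN and IFI6 in 9. The calls of CCND2 and ETV5 were lost in 0 of 21. TFRC, described with the red cell genes, was the member that fell. BCL2L1 (324 and 229 CPM against 243 and 237 CPM, adjusted p = 0.60) and MYC (720 and 420 CPM against 761 and 754 CPM, adjusted p = 0.43) did not pass. With the FedP libraries summed 2 members were called higher, and with GC and length trends removed 8 were higher and 3 lower, against 0.775% of all genes higher under the first setting and 10.2% higher and 13.6% lower under the second.

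CISH, a feedback inhibitor induced by STAT5, was at 39.6 and 18.6 CPM in parental cells and at 62.0 and 59.6 CPM in FedP, with no overlap, and did not pass (log2 1.06, SE 0.37, adjusted p = 0.15). Its promoter is shown because it holds the most matches to the STAT5 core motif TTCNNNGAA among the 13 members of the list with a RefSeq promoter. The 250 bases before the start of the gene (chr3:50611775-50612024, minus strand, GRCh38.p14, written 5′ to 3′ in the direction of transcription) hold 4 matches, given in capitals. They start 241, 230, 129 and 112 bases before the start of the gene. The motif reads the same on both strands.
CISH: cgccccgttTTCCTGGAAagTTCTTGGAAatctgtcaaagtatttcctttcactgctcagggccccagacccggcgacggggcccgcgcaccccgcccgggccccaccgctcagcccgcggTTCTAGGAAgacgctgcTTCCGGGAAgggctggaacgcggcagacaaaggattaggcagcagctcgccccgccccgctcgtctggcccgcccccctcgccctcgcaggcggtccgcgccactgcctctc
Of the 13 promoters of the list 2 held the motif, those of CISH and BCL6, which is 15.4%, against 6.78% of all 27305 promoters of that length, 5.62% of those of tested genes and 3.69% of those of genes called higher in FedP. The promoters of PIM1, SOCS1, SOCS3 and ID1 held none in this window.

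Receptors and kinases of the JAK pathway changed in both directions. JAK2 itself was at 388 and 670 CPM against 298 and 307 CPM (log2 -0.81, SE 0.28, adjusted p = 0.15), lower in both FedP libraries without passing, and STAT5A was at 664 and 484 CPM against 524 and 515 CPM (log2 -0.14, adjusted p = 0.69). JAK1 fell from 415 and 482 CPM to 256 and 252 CPM (log2 -0.82, SE 0.15, adjusted p = 0.033). IL6ST, the shared receptor chain gp130 that signals through JAK1, fell from 138 and 197 CPM to 36.2 and 37.4 CPM (log2 -2.18, SE 0.22, adjusted p = 0.0064). CSF2RB, the beta chain shared by the receptors for IL-3, IL-5 and GM-CSF, which signals through JAK2, rose from 269 and 164 CPM to 622 and 619 CPM (log2 1.52, SE 0.27, adjusted p = 0.030). IL4R (log2 1.84, adjusted p = 0.0093) and IFNGR2 (log2 1.36, adjusted p = 0.043) rose. In all, 3 of 26 tested genes of this list were higher and 3 lower, 23.1% against 6.63% of all tested genes.

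Among 34 receptor tyrosine kinases tested, 4 were higher and 2 lower, 17.6% against 6.63% of all tested genes. Beside KIT, these included FLT4, a VEGF receptor, which rose from 44.8 and 26.8 CPM to 104 and 100 CPM (log2 1.51, adjusted p = 0.032). PDGFRB rose from a low level (log2 3.36, adjusted p = 0.046). KDR, another VEGF receptor, fell from 96.0 and 112 CPM to 30.9 and 28.6 CPM (log2 -1.81, SE 0.16, adjusted p = 0.0049), and the insulin-like growth factor receptor IGF1R fell from 516 and 392 CPM to 209 CPM in both FedP libraries (log2 -1.12, adjusted p = 0.028).

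MHC class II genes, which present antigen to helper T cells, were called only upwards, with 4 of 9 tested, against 3.84% of all tested genes, and a median of 1.70. CIITA, the coactivator that switches these genes on, rose from 0.766 and 1.09 CPM to 4.06 and 3.68 CPM (log2 2.06, SE 0.34, adjusted p = 0.023). CD74, the invariant chain, rose from 33.1 and 22.0 CPM to 82.6 and 78.5 CPM (log2 1.55, SE 0.24, adjusted p = 0.019). HLA-DPA1 (log2 1.37, adjusted p = 0.028) and HLA-DRB1 (log2 1.70, adjusted p = 0.031) rose as well, although reads of HLA genes can be divided uncertainly between near-identical copies. The calls of these 4 were not kept with the FedP libraries summed, which left 1 FedP replicate and far fewer calls among all genes. With GC and length trends removed 7 members were higher, where 10.2% of all genes were.

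Of 43 interferon-stimulated genes 5 were higher, 0 lower and 38 not called, against 3.84% of all tested genes higher, and the median was 0.26. Summing the FedP libraries left 1 called higher, against 0.775% of all genes, and with GC and length trends removed 16 were higher and 1 lower, against 10.2% and 13.6%. The membrane proteins IFITM1, IFITM2 and IFITM3, which block entry of viruses, made up most of the 5 called in the reported fit. IFITM1 went from 6.87 and 3.91 CPM to 33.4 and 33.6 CPM (log2 2.63, SE 0.41, adjusted p = 0.020), and IFITM2 from 206 and 122 CPM to 443 and 412 CPM (log2 1.38, adjusted p = 0.044). OAS3 (log2 1.22, adjusted p = 0.019) and IFI6 (log2 0.99, adjusted p = 0.041) were the others. Of NF-kappaB and TNF response genes 1 was higher and 3 lower of 24, 16.7% against 6.63% of all tested genes. The inhibitors NFKBIA (log2 -1.08, adjusted p = 0.031) and TNFAIP3 (log2 -0.89, adjusted p = 0.035) and the nuclear factor NFKBIZ (log2 -1.02, adjusted p = 0.042) fell. The kinase RIPK2 rose (log2 1.00, adjusted p = 0.025).

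**Figure D3:**
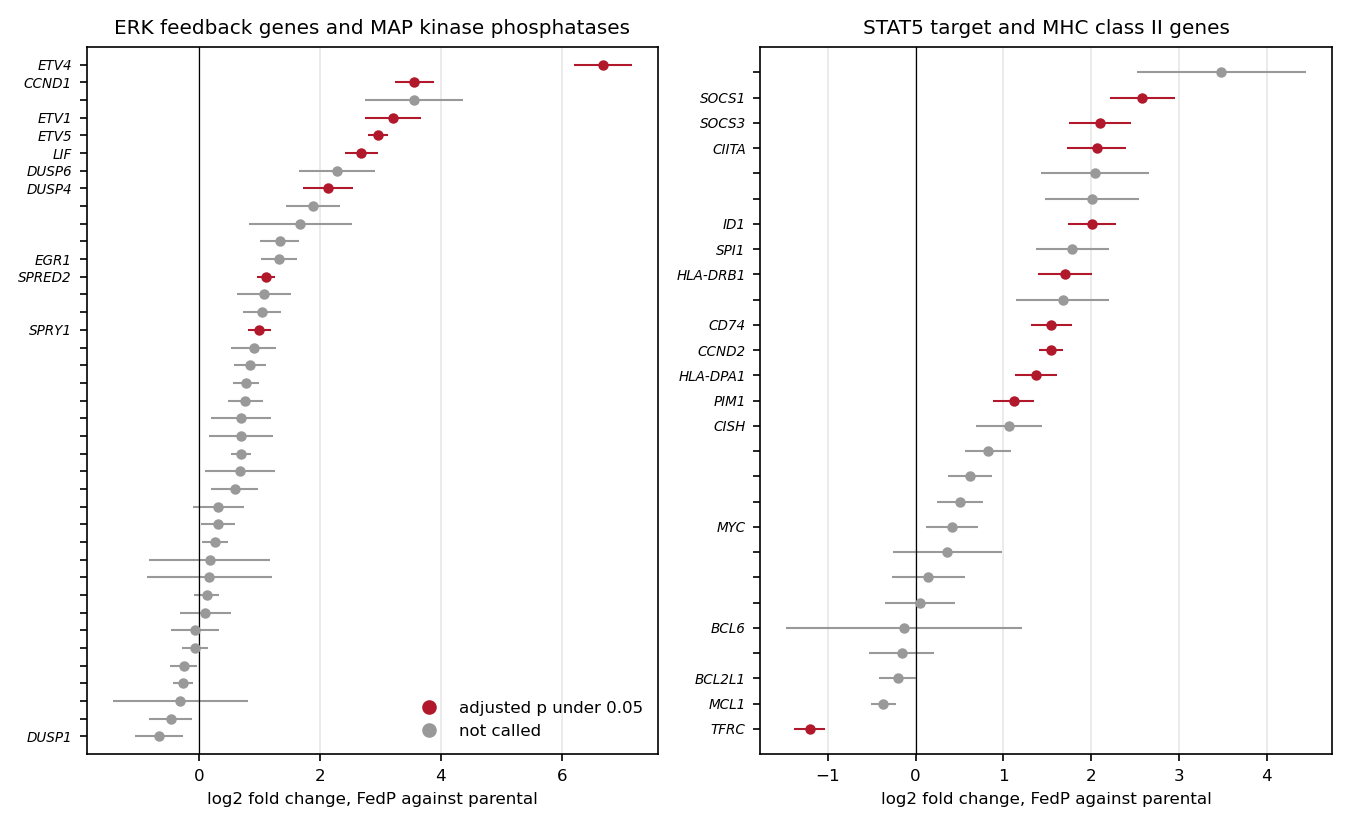
log2 fold change of FedP against parental cells with its standard error for ERK feedback genes and MAP kinase phosphatases (left) and STAT5 target and MHC class II genes (right), red where the adjusted p was under 0.05, with genes named in the text labelled. All red genes lie above 0 except TFRC at -1.21, and DUSP6 at 2.28 is not red with a standard error of 0.63.

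Of 15 tested genes of the BCL2 family, which sets the threshold for cell death, 1 was called, 6.67% against 6.63% of all tested genes. This was BCL2. It rose from 0.818 and 1.18 CPM to 8.65 and 7.57 CPM (log2 3.02, SE 0.26, adjusted p = 0.0047), and the call was kept with the FedP libraries summed (adjusted p = 0.0081). MCL1, another survival protein, was at 113 and 119 CPM against 88.4 and 91.6 CPM (log2 -0.37, adjusted p = 0.18). Of 19 tested genes of D-type cyclins, CDK4/6, CDK inhibitors and related genes, 4 were higher, 1 lower and 14 not called. The share called was 26.3%, against 6.63% of all tested genes, and the median log2 fold change was -0.14. Those called higher were CCND1 and CCND2, the cyclin CCNE1 (1.53 and 1.32 CPM against 4.00 and 4.12 CPM, log2 1.51, adjusted p = 0.022) and the inhibitor CDKN1C (log2 2.61, adjusted p = 0.017). E2F2 fell (log2 -1.16, adjusted p = 0.042).

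Genes of cholesterol and fatty acid synthesis were called only upwards, with 6 of 30 tested, against 3.84% of all tested genes, and a median of 0.65. FDFT1, the squalene synthase, rose from 170 and 148 CPM to 350 and 355 CPM (log2 1.15, SE 0.16, adjusted p = 0.015). SCD, which makes unsaturated fatty acids, rose from 335 and 284 CPM to 606 and 583 CPM (log2 0.94, SE 0.17, adjusted p = 0.031). MSMO1 (log2 1.14), ACAT2 (1.13), MVK (1.39) and FADS1 (0.78) were the others. The calls of the 6 were not kept with the FedP libraries summed, a setting with far fewer calls among all genes. With GC and length trends removed 19 members were higher and 1 lower, against 10.2% and 13.6% of all genes.

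Amino acid and lysosomal genes split. ALDH1L2, a mitochondrial folate enzyme and ATF4 target, rose from 1.76 and 1.71 CPM to 10.4 and 10.7 CPM (log2 2.61, SE 0.18, adjusted p = 0.0034), the asparagine synthetase ASNS rose from 37.4 and 38.2 CPM to 78.9 and 77.1 CPM (log2 1.05, adjusted p = 0.018), and the alanine transaminase GPT2 fell (log2 -1.50, adjusted p = 0.011). In all 3 of 32 ATF4 response genes were higher and 2 lower, 15.6% against 6.63% of all tested genes. Among 37 lysosome and autophagy genes (16.2% called), the cathepsins CTSS (log2 1.64), CTSZ (1.49) and CTSH (2.99) rose, and CTSA (log2 -2.13), TPP1 (-1.19) and MAP1LC3B (-0.75) fell. CTSH had 4.89 and 2.29 CPM in parental cells and 27.5 and 29.6 CPM in FedP. Of 19 drug efflux genes (15.8% called) the transporter ABCC3 fell from 216 and 129 CPM to 16 and 18.2 CPM (log2 -3.33, SE 0.29, adjusted p = 0.0047). The cholesterol exporter ABCA1 rose from 1.01 and 1.26 CPM to 5.69 and 5.35 CPM (log2 2.28, adjusted p = 0.020). The third, MVP, rose by 0.89 on the log2 scale (adjusted p = 0.034), a value of 0.33 that did not pass (adjusted p = 0.38) with GC and length trends removed.

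The called genes with the highest CPM, which is not corrected for transcript length, were mostly lower in FedP. The mitochondrial transcripts MT-ND5 (14698 and 24959 CPM against 7760 and 7829 CPM, log2 -1.35, adjusted p = 0.036) and MT-CO2 (log2 -0.69, adjusted p = 0.041) led them, and these 2 were the members called of 15 mitochondrially encoded genes, whose median was -0.87. The share of the list called was 13.3%, against 6.63% of all tested genes. In 14 of the 15 both FedP libraries were below both parental ones, as they were in 4778 of all 15924 tested genes. Parental library 2 had the higher mitochondrial share of that pair. When only the FedP and parental groups were fitted, 0 of the 15 were called lower, against 224 of all 15650 genes tested there. With GC and length trends removed 11 were, against 13.6% of all tested genes. The chaperone HSPA8 fell from 1590 and 1850 CPM to 810 and 816 CPM (log2 -1.08, SE 0.14, adjusted p = 0.012). With DNAJB6 and DNAJA1 it made up the 3 heat shock genes of 24 that were called (12.5%), all lower. When only the FedP and parental groups were fitted, 0 heat shock genes were called lower, against the same 224 of 15650 genes. Removal of GC and length trends gave 10 lower and 2 higher, against 13.6% and 10.2% of all tested genes. HSP90AA1 was at 541 and 899 CPM against 378 and 383 CPM without passing (log2 -0.92, adjusted p = 0.094). IGFBP5, which binds insulin-like growth factors, fell from 1137 and 989 CPM to 364 and 359 CPM (log2 -1.56, SE 0.14, adjusted p = 0.0053), and the leukocyte receptor CD84 fell from 776 and 1020 CPM to 305 and 316 CPM (log2 -1.53, adjusted p = 0.0093).

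By edgeR, 6.63% of all tested genes were called. No member was called among 78 cytosolic ribosomal protein genes, 45 nuclear respiratory chain genes or 23 endoplasmic reticulum stress genes. Their numbers at an unadjusted p under 0.05 were 11, 9 and 3. DESeq2 called 1 higher and 3 lower, 4 higher and 0 lower, and 0 higher and 2 lower of them. Over all 15924 genes DESeq2 called 1262 higher and 1298 lower. Limma-voom called 1, 1 and 0 of them, all higher, and over all genes 733 higher and 545 lower. With GC and length trends removed 3, 8 and 1 were higher and 5, 1 and 1 lower, against 10.2% and 13.6% of all genes.

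FedP and RuxP were also compared directly in the same fit. Of the 15924 genes 222 passed, 1.39%, with 37 higher (0.232%) and 185 lower (1.16%) in FedP. Both lines are set against the same parental libraries, so no overlap of their changes from parental cells is given. Large changes from parental cells were not all particular to FedP: in RuxP, PF4 was at 1.57 and 1.78 CPM and FEV at 17.3 and 26.7 CPM. The 40 megakaryocyte and platelet genes had a median FedP minus RuxP log2 difference of 0.12. Cell cycle genes differed between the persistent lines. Of 46 DNA replication genes 25 were lower in FedP than in RuxP and 0 higher, with a median difference of -1.24, and of 42 mitosis genes 29 were lower and 0 higher, with a median of -1.61. Against parental cells the same genes had medians of 0.13 and -0.05 in FedP, with 1 higher and 1 lower and with 2 higher and 1 lower. RRM2, the small subunit of ribonucleotide reductase, was at 40.7 and 40.5 CPM in parental cells, 123 and 139 CPM in RuxP and 23.9 and 24.7 CPM in FedP (FedP minus RuxP log2 -2.43, SE 0.15, adjusted p = 0.018). The spindle checkpoint kinase BUB1 was at 167 and 200, 177 and 185, and 70.1 and 70.2 CPM (FedP minus RuxP log2 -1.37, adjusted p = 0.027), and was lower in FedP than in either other group.

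**Figure D4:**
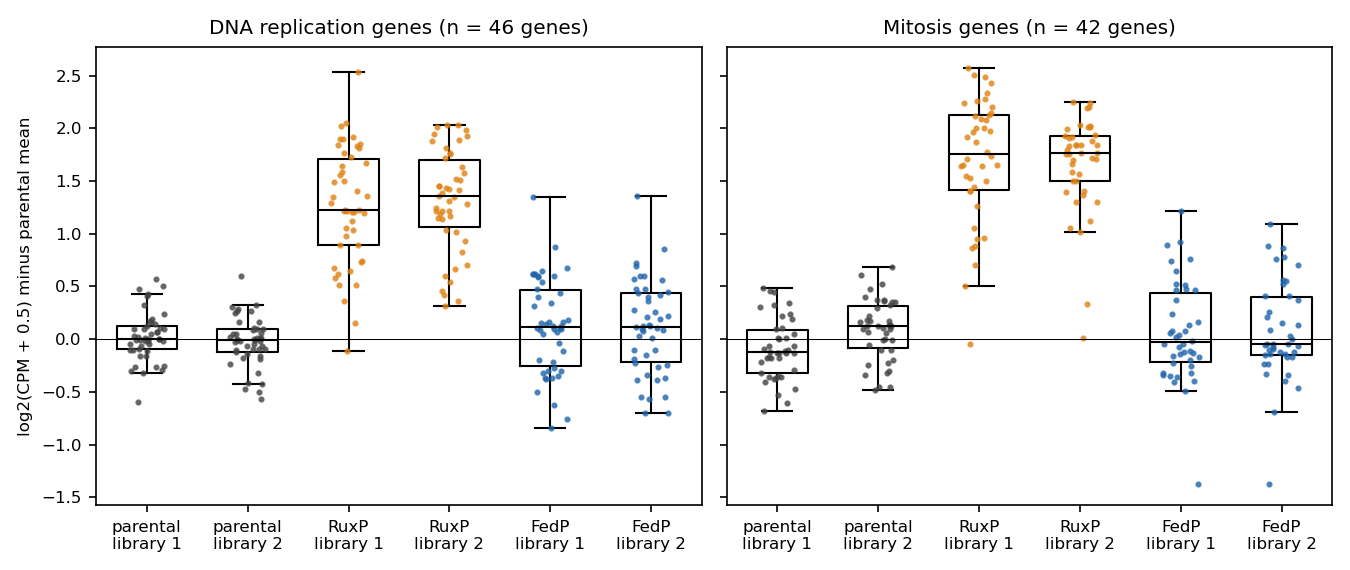
log2(CPM + 0.5) minus the mean of the 2 parental libraries for 46 DNA replication genes (left) and 42 mitosis genes (right), 1 point per gene in each of 6 libraries, with boxes of the quartiles. The RuxP libraries have medians of 1.23 and 1.36 for replication and of 1.76 in both for mitosis, and the FedP libraries of 0.11 and 0.12 and of -0.03 and -0.05.

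Single genes differed from RuxP in both directions. PTPRF, a receptor phosphatase, was at 12.4 and 6.32 CPM in parental cells, 13.2 and 20 CPM in RuxP and 84.9 and 86.4 CPM in FedP (FedP minus RuxP log2 2.37, adjusted p = 0.044). The red cell enzymes PKLR, the pyruvate kinase of that lineage (5.18 and 2.83, 3.34 and 2.22, and 17.6 and 16.8 CPM, log2 2.63, adjusted p = 0.034), and ALAS2, which starts haem synthesis there (66.9 and 40.2, 19.3 and 27.7, and 101 and 93.4 CPM, log2 2.05, adjusted p = 0.041), were higher in FedP than in RuxP. CD24 was 38.8 and 38.3 CPM in RuxP, and 5.26 CPM in FedP lay below that (log2 -2.87, SE 0.16, adjusted p = 0.018). The number of genes edgeR called in this comparison was 0 with the FedP libraries summed, without either FedP or either RuxP library, and with a replicate block, and it was 5672 and 5332 without parental library 1 and 2, respectively. With the FedP libraries summed 2278 genes had an unadjusted p under 0.05, and DESeq2 on all 6 libraries called 3605. With GC and length trends removed 2267 passed (14.2%), and with FedP summed as well 443.

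The fold changes of FedP against parental cells followed the GC content of the genes. In 10 bins of 1587 to 1598 genes each, the median log2 fold change went from -0.31 in the bin of lowest GC content (27.45 to 38.48%) to 0.46 in the highest (61.65 to 73.84%), a difference of 0.78. In the lowest bin 29 genes were called higher and 42 lower, and in the highest 74 were higher and 9 lower. The 2 parental libraries differed along the same axis: parental library 2 minus library 1 had a median of 0.51 in the lowest bin and of -0.78 in the highest. FedP minus parental library 1 ran only from -0.02 to 0.09 between these bins, and FedP minus parental library 2 from -0.49 to 0.84. Without parental library 2 the difference between the end bins was therefore 0.13, and without parental library 1 it was 1.54. RuxP libraries lay on the side of parental library 2, at -0.59 and -0.23 in the highest bin relative to the mean of all 6, where FedP lay at 0.47 and 0.42. Whether this pattern came from library preparation or from the cells was not tested.

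**Figure D5:**
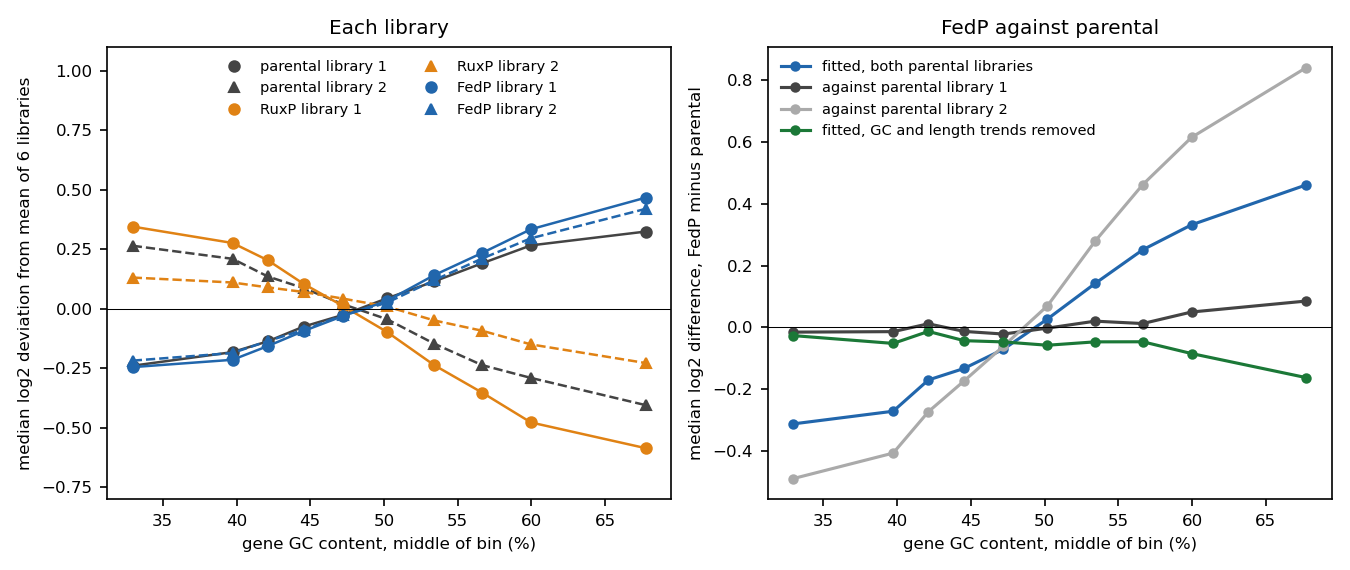
Medians of 10 bins of gene GC content, for each library as log2 deviation from the mean of 6 libraries (left) and for FedP minus parental cells as log2 difference (right). Both FedP libraries and parental library 1 rise from left to right, parental library 2 and both RuxP libraries fall, and on the right the rise from -0.31 to 0.46 is absent against parental library 1.

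Of the 1055 calls 95.2% were called in the same direction after removal of GC and length trends, and 83.3% were without parental library 2. Across genes the correlation of GC content with the log2 fold change was 0.25 before and -0.02 after the removal, over 15918 genes, which are not independent replicates. The gene groups above differ in this respect: the median GC content was 55.2% for ERK feedback genes, 56.1% for STAT5 targets, 50.5% for megakaryocyte genes and 44.3% for mitochondrial ones, against 48.6% over all tested genes. With GC and length trends removed the median log2 fold change went from 0.77 to 0.55 for ERK feedback genes and from 0.66 to 0.53 for STAT5 targets. It went from -0.89 to -0.79 for megakaryocyte genes and from -0.87 to -0.67 for mitochondrial ones.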

How the data were processed

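Libraries of HEL cells were sequenced after RNeasy extraction with DNase, per the labels' protocols. The submitters' processing notes name bcl2fastq, STAR 2.5.1a, edgeR and GRCh38; the annotation, strand setting and counter are not named in any source used here. The authors deposited read counts per gene, without normalization. The table had 34343 lines, of which 130 repeated lines were left out, leaving 34213 genes. Among counts of 1 to 20, 59.8 to 73.07% were even, as when both mates of a pair are counted, so precision may be lower than totals imply.

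All 6 parental, RuxP and FedP libraries entered 1 fit with edgeR 4.0.16 in R 4.3.3: filterByExpr by group, TMM scaling and the quasi-likelihood F test, two-sided, 3 residual degrees of freedom and a common biological coefficient of variation of 26.9%. Benjamini-Hochberg adjustment was over all 15924 tested genes. SE is the absolute log2 fold change divided by the square root of F. GC and length trends were removed per library with splines of 5 degrees of freedom on GENCODE 29 transcripts, which 99.83% of genes matched. Promoters came from RefSeq, GRCh38.p14. The scripts were tested on simulated counts.

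Genes named were a set of 11 fixed genes, the 15 largest rises and falls (mean of at least 4 CPM, groups not overlapping), up to 6 called and 4 abundant uncalled members of each list, the 5 largest differences from RuxP each way, and the 10 called genes of highest CPM. A few uncalled lineage and signalling genes (ITGA2B, GATA1, GATA2, SPI1, BCL2L1, STAT5A, HSP90AA1, MCL1, MT-CO1, HBG2 and RUNX1) were added after their values were seen. Some genes that the rule selects are not reported here. Members and lists were chosen with earlier results of these data known. Alternatives were DESeq2 1.42.0, its size factors, limma-voom (limma 3.58.1), other filters, only the groups compared, a replicate block, GC and length removal, halved counts and each library left out. Summing the FedP libraries, combining GC removal with that or with a parental library left out, and crossing RuxP numbers in the block were chosen after seeing the data.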

Additional observations from a re-analysis of the deposited data

Results flagged for a closer look

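Named genes whose level differed between the persistent lines, by edgeR's quasi-likelihood test of FedP minus RuxP with adjusted p under 0.05, are given with that log2 difference. Higher in FedP were PKLR (2.63), PTPRF (2.37), SHISA7 (2.24), ALAS2 (2.05), FN3K (1.99), ALOX5 (1.33) and MVP (1.16). Lower in FedP were the cell cycle genes FAM111B (-3.26), ESCO2 (-2.87), CLSPN (-2.87), DIAPH3 (-2.82), RRM2 (-2.43), BUB1 (-1.37) and PTTG1 (-1.1). Also lower were the surface and membrane genes CD24 (-2.87), AQP2 (-2.68), CCR4 (-1.54), KDR (-1.11) and LIPH (-1.04), together with HSPA8 (-1.16), IGFBP5 (-1.07) and MT-CO2 (-0.896). Each of these calls was lost in 6 to 11 of 21 alternative analyses, most often for MVP, and none changed direction.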

How the results depend on the processing

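For FedP against parental cells the 1055 calls became 1818 without a low-count filter, 2560 with DESeq2, 568 with only the groups compared, 3787 with GC and length trends removed and 2467 with a block in which RuxP numbers were crossed. Leaving out 1 library gave 197 to 5293, the highest without parental library 1 and the lowest without FedP library 1. With the FedP libraries summed the count was 212, and with GC and length trends removed it was 3143 without parental library 2 and 4818 without parental library 1. Calls of at least 2-fold, 846 in the reported fit, were 1344 without a filter, 1492 with DESeq2, 1431 with the crossed block, 212 with FedP summed, 1635 with GC removal and without parental library 1, and 197 to 2779 with 1 library left out. For FedP against RuxP the 222 calls became 2886 without a filter, 3605 with DESeq2, 445 with limma-voom, 5783 with only the groups compared, 2267 with GC and length removed, 4059 with the crossed block, 0 with FedP summed and 443 with GC removal as well. GC removal without parental library 2 or 1 gave 3935 and 3932, and leaving out 1 library gave 0 to 5672. The cause of these changes was not tested.

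The replicate block, which pairs libraries by number although no label pairs them, gave 272 calls for FedP against parental cells, all of them at least 2-fold, and 0 against RuxP, where 3597 genes had an unadjusted p under 0.05 by edgeR. With GC and length trends removed as well it gave 2715 and 926. Deviations of same-numbered libraries correlated at -0.444 for parental and RuxP, 0.156 for parental and FedP and -0.114 for RuxP and FedP, so the numbers were not taken to pair the libraries.

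The GC trend of 0.776 was 1.54 without parental library 1, 0.134 without parental library 2 and -0.137 with GC and length trends removed. Of the genes called in FedP against parental cells, the text names 1 whose log2 fold change turned direction, S100A6, which was -0.142 with GC removal and without parental library 1. The others were not called in the reported fit. FAM111B was -0.521 without parental library 1, 0.0618 with GC removal, 0.0623 with the block as well, 0.154 without parental library 2, 0.0629 with GC removal and FedP summed, and 0.125 with GC removal and without parental library 2. CLSPN was -1.14 without parental library 1, 0.0779 without parental library 2 and 0.0696 with GC removal as well. ITGA2B was 0.0300 with limma-voom, 0.427 without parental library 1, -0.361 without parental library 2 and 0.0293 with the crossed block. GATA1 was 0.670 without parental library 1, -0.379 with GC removal, -0.375 with the block as well, -0.318 without parental library 2, -0.358 with GC removal and FedP summed, and -0.482 and -0.286 with GC removal and without parental library 2 and 1. BCL2L1 and STAT5A were 0.0684 and 0.102 without parental library 1 and -0.426 and -0.349 without parental library 2, and HBG2 was -0.00411 with GC removal and without parental library 2. Of 156 named calls 153 were kept with GC removal, 156 with DESeq2, 153 with limma-voom, 143 without parental library 2 and 64 with FedP summed. With 2 libraries a group, and a FedP pair closer than the others, the precision of FedP values rests on a spread that its own libraries did not show.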

Other observations

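Further gene groups of FedP against parental cells were counted by edgeR's quasi-likelihood test, by which 6.63% of all tested genes were called. Among hypoxia and glycolysis genes 2 of 39 were higher, the hypoxia factor EPAS1 (log2 2.29) and the enolase ENO2 (1.35), and the demethylase KDM3A was lower (-0.95). Of 29 ID, SMAD and TGF-beta pathway genes 3 were higher, the pseudoreceptor BAMBI (1.27) and the inhibitors of differentiation ID1 (2.01) and ID2 (1.29). The immunoproteasome subunits PSMB8 (1.34) and PSMB9 (0.89) were the 2 higher of 18 MHC class I presentation genes. Of 14 S100 genes S100A6 was higher (0.68), at 89.0 and 87.4 CPM in parental cells and 145 and 138 CPM in FedP, while S100A8 and S100A9 were not tested, with at most 3 and 46 counts in a library. The share called was 7.69%, 10.3%, 11.1% and 7.14% in these 4 lists in turn.

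The remaining lists were p53 targets (2 higher and 2 lower of 25), iron handling (1 and 1 of 15), chromatin regulators (1 and 2 of 30), ribosome biogenesis (1 and 0 of 36), NRF2 targets (0 and 1 of 29), histones (0 and 1 of 21) and inflammatory cytokines (0 and 2 of 14). The share called was 16% in p53 targets, 14.3% in inflammatory cytokines, 13.3% in iron handling genes and 10% in chromatin regulators, and between 2.78% and 4.76% in the other 3. The 2 inflammatory cytokine genes called were PF4 and PPBP, which were also counted as platelet genes. The NRF2 target called was ABCC3, also counted with the drug efflux genes.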
